A study of Mus musculus with 23 samples.

Results

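The 6 genes described here, Slc1a2, Slc1a3, Glul, Glud1, Slc6a11 and Slc6a9, clear glutamate, GABA and glycine from the space around synapses, and they were taken by symbol from the 32285 genes counted in single cells of mouse brain. The list sets no threshold on a measured value, and it was drawn up with earlier results of these data known. The study dosed mice intravenously with an antibody carrying the dye AF647 and asked which brain cells had taken it up. Live cells were sorted by their dye signal into negative, low, medium and high bins, and each bin was sequenced as droplet libraries that count unique molecular identifiers (UMIs).

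An antibody transport vehicle (ATV) is an antibody engineered to ride on a receptor of capillary cells into the brain. ATV-TfR (DNP02_hIgG1_LALAPG_ATV35.23.2) binds the transferrin receptor, and the mice that received it carried the knock-in TfR mu/hu KI. ATV-CD98hc (DNP02 LALAPG LLB2-10-8 monovalent) binds CD98hc, the heavy chain of a large neutral amino acid carrier, in mice labelled CD98hc mu/hu KI. Control IgG (DNP02_hIgG1_LALAPG) is the study's control antibody and was given to C57BL/6 mice, so treatment and genotype coincide and cannot be told apart. All mice received 45 mg/kg of dye-coupled antibody at an age of 12 weeks, or 3.3 months in the sample labels, and both knock-ins were on the C57BL/6J background. Brains without olfactory bulbs, cerebellum, pons and medulla were dissociated in the presence of Actinomycin D and Anisomycin, which block transcription and translation. Each library came from a pool of 1 male and 1 female mouse, and each group has 2 such pools, except the negative bin of control IgG with 1 library. The gates were set on the ATV-TfR cells and applied to every treatment, so a bin names a range of dye signal, not a type of cell.

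The 23 libraries held 1861238 to 90307818 UMIs, and 519 to 19339 cells per library were kept, with a median of 2178 to 4873 UMIs per cell. Cells were clustered without the 6 genes, and 18 of 29 clusters were named from markers, giving 10 classes written with the ending -like. The other 11 clusters, with 38375 of 234022 kept cells (16.4%), carried markers of more than 1 class or were led by other genes, and they were not used. A total of 13460 kept cells carried a barcode sequence that also occurs in another library. All 12 astrocyte markers were detected in the astrocyte-like class in every library used. This does not test the label, since the same markers named the class. In sums over cells all 12 were also detected in microglia-like cells of every negative library. By the naming rule, clusters 5 and 8 of the class met 8 of the 12 markers and its other clusters met all 12. The astrocyte-like class held 3544, 27835, 22148 and 972 cells in the negative, low, medium and high bins of ATV-TfR. The matching numbers in ATV-CD98hc were 5446, 23510, 2947 and 387. Control IgG had 5032 astrocyte-like cells in its negative library and 23, 7 and 6 in the other bins, which were too few to use. In ATV-TfR these cells were 24.7 ± 8.30% of the kept cells in the negative bin, 87.2 ± 3.09% in low, 75.8 ± 0.83% in medium and 2.74 ± 0.51% in high (SD, n = 2). The high bins therefore describe the class from few cells. These shares do not measure how the class was divided over the bins.

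Neurons release glutamate, GABA and glycine, and neighbouring astrocytes end the signal by carrying these transmitters into the cell together with sodium. Slc1a2 (GLT-1) and Slc1a3 (GLAST) are the glutamate transporters of astrocytes. Inside the cell, Glul (glutamine synthetase) joins glutamate and ammonia to glutamine, which is returned to neurons, while Glud1 (glutamate dehydrogenase) feeds glutamate into the citric acid cycle. Slc6a11 (GAT3) carries GABA and Slc6a9 (GlyT1) carries glycine. Slc1a3 is also known from radial glia and Glul from oligodendrocytes.

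In GRCm38 with the GENCODE M21 annotation, Slc1a2 (ENSMUSG00000005089) lies at chr2:102658659-102790784 on the plus strand and Slc1a3 (ENSMUSG00000005360) at chr15:8634124-8710764 on the minus strand. Glul (ENSMUSG00000026473) lies at chr1:153899944-153909723 on the plus strand and Glud1 (ENSMUSG00000021794) at chr14:34310727-34345265 on the plus strand. Slc6a11 (ENSMUSG00000030307) lies at chr6:114131241-114249952 and Slc6a9 (ENSMUSG00000028542) at chr4:117834506-117875198, both on the plus strand.

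The 250 bases before the RefSeq starts (GRCm38.p6) of Slc1a3 and Slc6a11 are shown, 5′ to 3′ in the direction of the gene. Windows of the other transporters, Slc1a2 and Slc6a9, overlapped annotated untranslated regions and were left out. Capitals mark 3 motifs on either strand, namely GGGCGG (a GC box), the TATA motif TATAAA, and as the last one CCAAT.
Slc1a3, chr15:8710808-8711057, minus strand: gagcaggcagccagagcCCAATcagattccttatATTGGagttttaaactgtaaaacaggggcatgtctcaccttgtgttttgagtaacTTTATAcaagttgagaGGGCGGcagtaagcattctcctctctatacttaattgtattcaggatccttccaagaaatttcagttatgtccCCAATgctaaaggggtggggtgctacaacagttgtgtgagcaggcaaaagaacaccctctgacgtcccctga
Slc6a11, chr6:114130991-114131240, plus strand: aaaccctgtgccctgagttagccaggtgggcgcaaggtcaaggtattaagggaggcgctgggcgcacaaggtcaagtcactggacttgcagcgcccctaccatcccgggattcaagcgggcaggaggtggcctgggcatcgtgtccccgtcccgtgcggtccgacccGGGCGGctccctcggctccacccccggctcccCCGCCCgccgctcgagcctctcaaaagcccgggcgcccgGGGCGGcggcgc
The window of Slc1a3 held 1 GC box, 1 TATA motif and 3 copies of the last motif. The window of Slc6a11 held 3 GC boxes and neither of the others. Guanine and cytosine made up 44.8% of the bases in the former and 71.2% in the latter. Of 32851 RefSeq windows of this length, 32.7% held the GC box, 12.4% the TATA motif and 33.8% CCAAT. These matches describe the letters of the windows only, and the 2 genes shared the GC box alone.

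The levels by class show which classes of cell carried the 6 genes, in the negative bins of all treatments. Levels are in CPM, the UMIs of the gene scaled to the same total of UMIs (1000000) in every class and library, as mean ± SD over 5 libraries unless stated, and neighbours in an order are called apart only where their ranges did not overlap. Each of the 6 genes had its highest mean in astrocyte-like cells. CPM compares 1 gene between classes, and values of different genes are set side by side only as counts of RNA 3′ ends.

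Slc1a2 stood at 6438 ± 465 CPM in astrocyte-like cells (5964 to 6950) and followed in ependymal-like cells at 429 ± 154 CPM. Below ependymal-like cells, every neighbouring pair of classes overlapped, down to 115 ± 28.3 CPM in microglia-like cells. Slc1a3 stood at 2635 ± 302 CPM in astrocyte-like and 1248 ± 266 CPM in fibroblast-like cells (940 to 1617), without overlap, and at 353 ± 42.7 CPM in ependymal-like cells. Glutamate transport RNA thus had 1 main class for Slc1a2 and a further class, the fibroblast-like cells, for Slc1a3. The ratio of Slc1a3 to Slc1a2 was 0.409 in astrocyte-like cells (0.380 to 0.451) and 10.8 in fibroblast-like cells (1.66 to 22.6).

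Glul stood at 1707 ± 98.1 CPM in astrocyte-like cells (1550 to 1799) and at 1213 ± 134 CPM in oligodendrocyte-like cells (1008 to 1334), without overlap. It was 627 CPM in the 1 negative library with enough endothelial-like cells, 545 ± 65.2 CPM in fibroblast-like and 414 ± 14.0 CPM in microglia-like cells. Glud1 was the most even member, with 802 ± 41.3 CPM in astrocyte-like cells, 333 ± 34.6 CPM in pericyte-like cells and 89.6 to 189 CPM as the means of the other 8 classes. Among those classes, border macrophage-like cells, at 189 CPM, had 3 libraries and endothelial-like cells 1. Of the UMIs of Glul in the named classes of the negative bins, 63.6% came from astrocyte-like and 26.1% from oligodendrocyte-like cells, whereas 80.6% of those of Glud1 came from astrocyte-like cells.

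Slc6a11 stood at 1360 ± 159 CPM in astrocyte-like cells (1173 to 1582) and at 92.0 ± 41.3 CPM in ependymal-like cells, the next class. Slc6a9 was the least abundant member, at 149 ± 25.6 CPM in astrocyte-like cells (115 to 177) and 115 ± 17.6 CPM in oligodendrocyte-like cells (101 to 145). These ranges overlapped, so the 2 classes are not called apart for the glycine transporter. Within libraries, astrocyte-like cells read higher than oligodendrocyte-like cells except in ATV-CD98hc replicate 2, at 115 against 116 CPM. Astrocyte-like cells gave 97.9% of the Slc6a11 UMIs and 67.1% of the Slc6a9 UMIs, and oligodendrocyte-like cells gave 28.2% of the latter. The ratio of Slc6a9 to Slc1a2 was 0.0233 in astrocyte-like cells, 0.518 in oligodendrocyte-like cells (0.420 to 0.560) and 0.398 in smooth muscle-like cells.

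**Figure D1:**
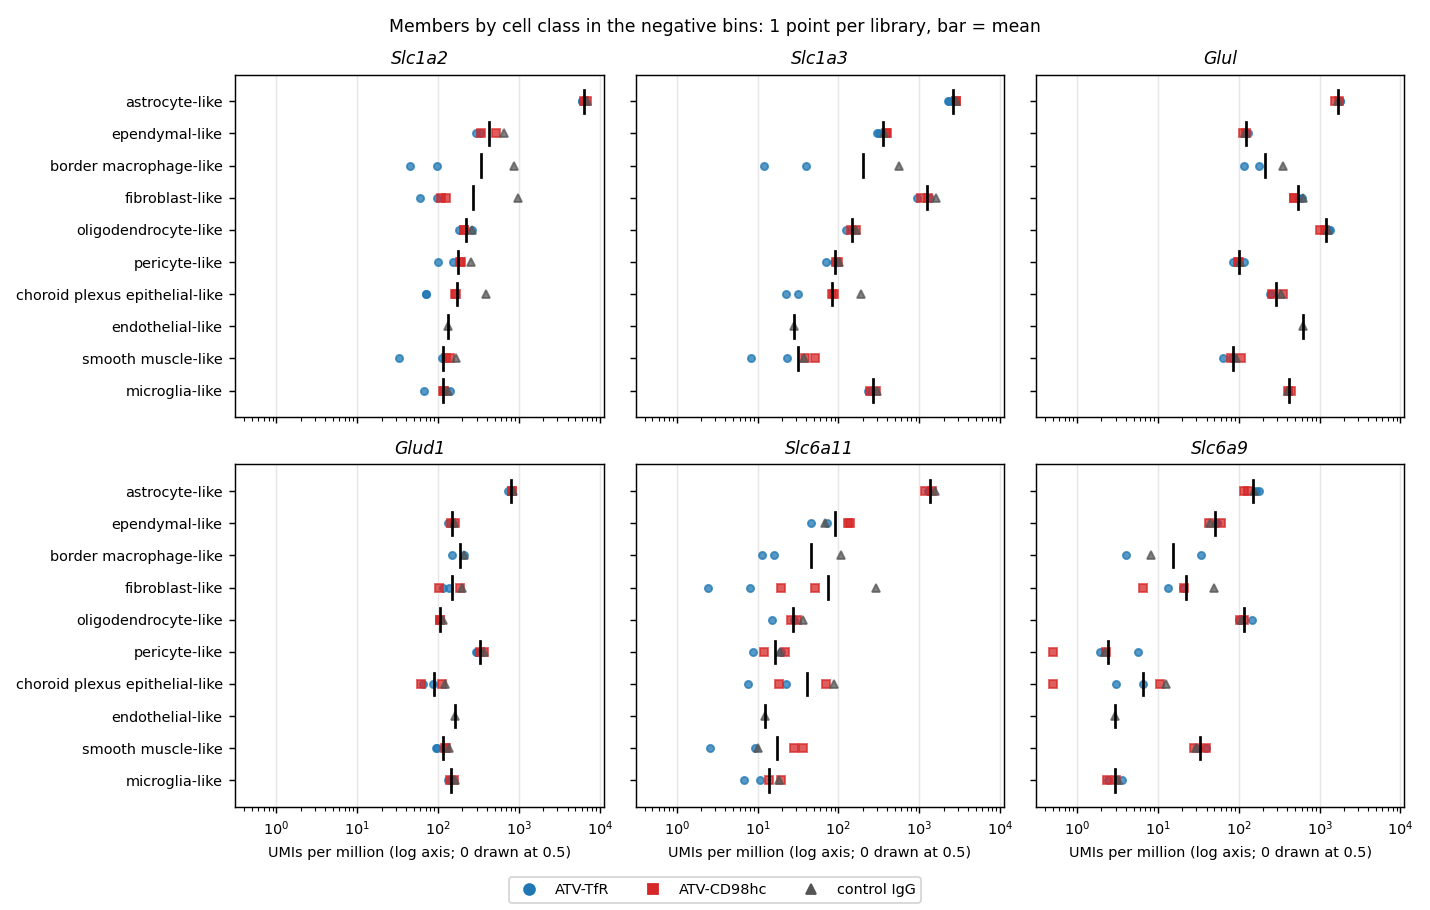
Level of each gene in each class in the negative bins, in CPM on a log axis, with 1 point per library coloured by treatment and a bar at the mean. Astrocyte-like cells hold the highest mean for all 6 genes, with fibroblast-like cells next for Slc1a3 and oligodendrocyte-like cells next for Glul and Slc6a9.

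Droplets pick up free RNA, so the share of cells with at least 1 UMI was set beside that of microglia-like cells, which are known to lack Slc1a2, Slc6a11 and Slc6a9. Slc1a2 was seen in 99.8% of astrocyte-like and 20.0% of microglia-like cells, at median depths of 4220.5 and 3049.3 UMIs. After thinning every cell to 1000 UMIs, the shares were 97.8% and 9.43% for Slc1a2, 63.5% and 1.12% for Slc6a11, and 13.2% and 0.329% for Slc6a9. In oligodendrocyte-like cells the thinned share was 10.5% for Slc6a9 and 58.8% for Glul, and in fibroblast-like cells it was 60.0% for Slc1a3. These shares were above the thinned microglia-like shares of 0.329%, 29.3% and 22.3%. The ratio of Slc1a3 to Slc1a2 was 2.46 in microglia-like cells, against 0.409 in astrocyte-like cells.

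The main comparison asked how the 6 genes of astrocyte-like cells differed between the bins of dye signal. UMIs were summed over the astrocyte-like cells of each library and tested with edgeR's quasi-likelihood test, with Benjamini-Hochberg adjustment over the 16032 genes tested, and a gene was called at an adjusted p below 0.05. All bins of a treatment are compared with the same 2 negative libraries, so comparisons of 1 treatment share their controls. Against the negative bin of ATV-TfR, the glutamate transporters and Slc6a11 rose in the high bin, with smaller rises of Glul and Glud1. In ATV-CD98hc, Slc6a11 and Slc6a9 rose with the bin, and Glul fell in the medium and high bins. Several of these calls were not made in fits within cluster 1 or cluster 3, 2 of the 6 clusters of astrocyte-like cells, whose values stand beside each gene and whose make-up is described further on.

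Slc1a2 in the 2 libraries of each ATV-TfR bin read 6008 and 5964 CPM in negative, 6112 and 6224 in low, 6706 and 7127 in medium, and 10329 and 10536 in high. The bins did not overlap, and both high libraries stood far above the rest. In ATV-CD98hc it read 6950 and 6396 CPM in negative, 5860 and 6375 in low, 6629 and 6670 in medium, and 5168 and 4732 in high, so here the high libraries were the lowest. The negative library of control IgG read 6875 CPM, and the negative libraries of ATV-TfR were the lowest of the 5 negative libraries. Slc1a2 was 1.90-fold higher in the high than in the negative bin of ATV-TfR (log2 fold change 0.93, SE 0.10, edgeR adjusted p = 2.32e-06). In ATV-CD98hc it fell by 0.47 (SE 0.10, adjusted p = 0.00285), a fold of 0.72. That call missed the threshold when the fit held only the treatments compared (-0.44, edgeR adjusted p = 0.0828). It also missed the threshold without ATV-TfR replicate 2 (log2 fold change -0.47). The libraries of that pool enter this comparison through the shared filter on low counts, normalization and estimate of the spread. Within cluster 3 the sign was opposite and not called (0.22, adjusted p = 0.381). In the medium bin of ATV-TfR, Slc1a2 did not pass the test (0.27, adjusted p = 0.135), although DESeq2 called it (0.25, adjusted p = 0.00761), as did edgeR with only the treatments compared (0.27, adjusted p = 0.012).

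Slc1a3 read 2281 and 2331 CPM in the negative, 2536 and 2565 in the low, 2884 and 3043 in the medium and 3796 and 3924 in the high libraries of ATV-TfR. As for Slc1a2, no bins overlapped. The ATV-CD98hc libraries read 2815 and 2883 CPM in negative, 2580 and 2726 in low, 2820 and 2894 in medium, and 3515 and 3168 in high, and control IgG read 2867 CPM. In ATV-TfR, Slc1a3 rose by a log2 fold change of 0.42 in medium (SE 0.09, edgeR adjusted p = 0.00702) and 0.87 in high (SE 0.09, adjusted p = 2.94e-06), the latter a fold of 1.82. The negative libraries of ATV-TfR were the lowest of the 5 negative libraries for this gene. ATV-TfR minus ATV-CD98hc was -0.31 in the negative bin (edgeR adjusted p = 0.154) and 0.07 in medium (adjusted p = 0.632), neither called. The high bin of ATV-CD98hc did not pass edgeR's test for it (0.19, adjusted p = 0.267), while DESeq2 called it (0.24, adjusted p = 0.00491). With only 1 library left in the ATV-TfR arm, the lone library is assumed to vary like the other groups. The medium call was then lost without replicate 1 (0.42, adjusted p = 0.523) and without replicate 2 (0.42, adjusted p = 0.695), at about the same fold change, and within cluster 1 (0.27, adjusted p = 0.0992).

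Glul, the enzyme that turns glutamate into glutamine, read 1799 and 1769 CPM in negative, 1743 and 1810 in low, 1738 and 1830 in medium, and 1987 and 2157 in high for ATV-TfR. The ATV-CD98hc libraries read 1550 and 1736 CPM, then 1446 and 1372, then 1157 and 1252, and finally 1059 and 1003 from negative to high, and control IgG read 1679 CPM. The 4 bins of ATV-CD98hc did not overlap and went down with the dye signal, whereas in ATV-TfR the high libraries alone stood apart. In ATV-CD98hc, Glul fell by 0.41 in medium (SE 0.09, edgeR adjusted p = 0.00466) and fell by 0.72 in high (SE 0.10, adjusted p = 5.24e-05), folds of 0.75 and 0.61. Glul rose by 0.34 in the high bin of ATV-TfR (SE 0.09, adjusted p = 0.0168), a call that was lost without replicate 1 (0.37, adjusted p = 0.346), without replicate 2 (0.30, adjusted p = 0.415) and with cells thinned to equal depth (0.23, adjusted p = 0.318). The medium call of ATV-CD98hc missed the threshold once ATV-TfR replicate 1 was left out (-0.40, adjusted p = 0.0546) and with only the treatments compared (-0.40, adjusted p = 0.0548). Within clusters the falls of ATV-CD98hc were not called: medium stood at 0.03 in cluster 1 (adjusted p = 0.91) and -0.11 in cluster 3 (adjusted p = 0.644), and high at -0.12 in cluster 3 (adjusted p = 0.716). Nor was the rise of ATV-TfR in high, at 0.20 in cluster 1 (adjusted p = 0.144) and 0.06 in cluster 3 (adjusted p = 0.832).

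Glud1, the mitochondrial enzyme that breaks glutamate down, was called in 1 bin. Its libraries read 732 to 803 CPM in negative, 775 to 831 in low, 793 to 874 in medium and 851 to 895 in high for ATV-TfR. The matching ranges in ATV-CD98hc were 816 to 826, 763 to 791, 789 to 829 and 829 to 940 CPM, with control IgG at 836. For Glud1 as well, the negative libraries of ATV-TfR were the lowest of the 5 negative libraries. Only the high bin of ATV-TfR was called, at 0.31 (SE 0.09, edgeR adjusted p = 0.0247, fold 1.24). Without either ATV-TfR replicate (0.30, adjusted p = 0.42, and 0.32, adjusted p = 0.366), under a stricter cell filter (0.27, adjusted p = 0.0733) and with cells thinned to equal depth (0.29, adjusted p = 0.186) that call was lost, as it was within cluster 1 (0.17, adjusted p = 0.272) and cluster 3 (0.24, adjusted p = 0.237).

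Slc6a11, the GABA transporter, read 1273 and 1322 CPM in negative, 1430 and 1465 in low, 1653 and 1681 in medium, and 1602 and 1618 in high for ATV-TfR. In ATV-CD98hc it read 1452 and 1173 CPM in negative, 1903 and 1751 in low, 2199 and 2176 in medium, and 2632 and 2699 in high, and in control IgG 1582 CPM. The ATV-CD98hc bins climbed without overlap, and those of ATV-TfR climbed up to the medium bin. It rose in low, medium and high of ATV-CD98hc by 0.50 (edgeR adjusted p = 0.00507), 0.77 (adjusted p = 1.82e-05) and 0.98 (adjusted p = 1.97e-06), each with an SE of 0.10, and the last is a fold of 1.97. In ATV-TfR it rose by 0.42 in medium (SE 0.10, adjusted p = 0.0131) and 0.44 in high (SE 0.10, adjusted p = 0.00496). Both ATV-TfR calls ended without its replicate 1 (0.38, adjusted p = 0.625, and 0.37, adjusted p = 0.351) and without replicate 2 (0.45, adjusted p = 0.609, and 0.49, adjusted p = 0.181). The low call of ATV-CD98hc missed the threshold once ATV-TfR replicate 2 was left out (0.50, adjusted p = 0.0664) and with only the treatments compared (0.51, adjusted p = 0.0736). Within cluster 3, Slc6a11 of ATV-CD98hc was not called in low (0.18, adjusted p = 0.687), medium (0.22, adjusted p = 0.304) or high (0.21, adjusted p = 0.415), nor was medium of ATV-TfR (0.38, adjusted p = 0.0502).

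Slc6a9, the glycine transporter, read 165 and 177 CPM in negative, 161 and 168 in low, 174 and 177 in medium, and 149 and 141 in high for ATV-TfR, and none of these changes was called. In ATV-CD98hc it read 130 and 115 CPM in negative, 200 and 182 in low, 208 and 236 in medium, and 207 and 282 in high, with control IgG at 156 CPM. All positive bins of ATV-CD98hc stood above its negative libraries and overlapped each other from medium to high. The rises were 0.67 in low (SE 0.11, edgeR adjusted p = 0.000772), 0.89 in medium (SE 0.11, adjusted p = 1.06e-05) and 0.94 in high (SE 0.13, adjusted p = 6.51e-05), folds of 1.59, 1.86 and 1.92. The negative libraries of ATV-CD98hc were the lowest of the 5 negative libraries for this gene. With cells thinned to equal depth, the high call was lost (0.66, adjusted p = 0.0638). Within cluster 3 all 3 calls ended, at 0.18 in low (adjusted p = 0.756), 0.02 in medium (adjusted p = 0.967) and, with the opposite sign, -0.060 in high (adjusted p = 0.934).

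**Figure D2:**
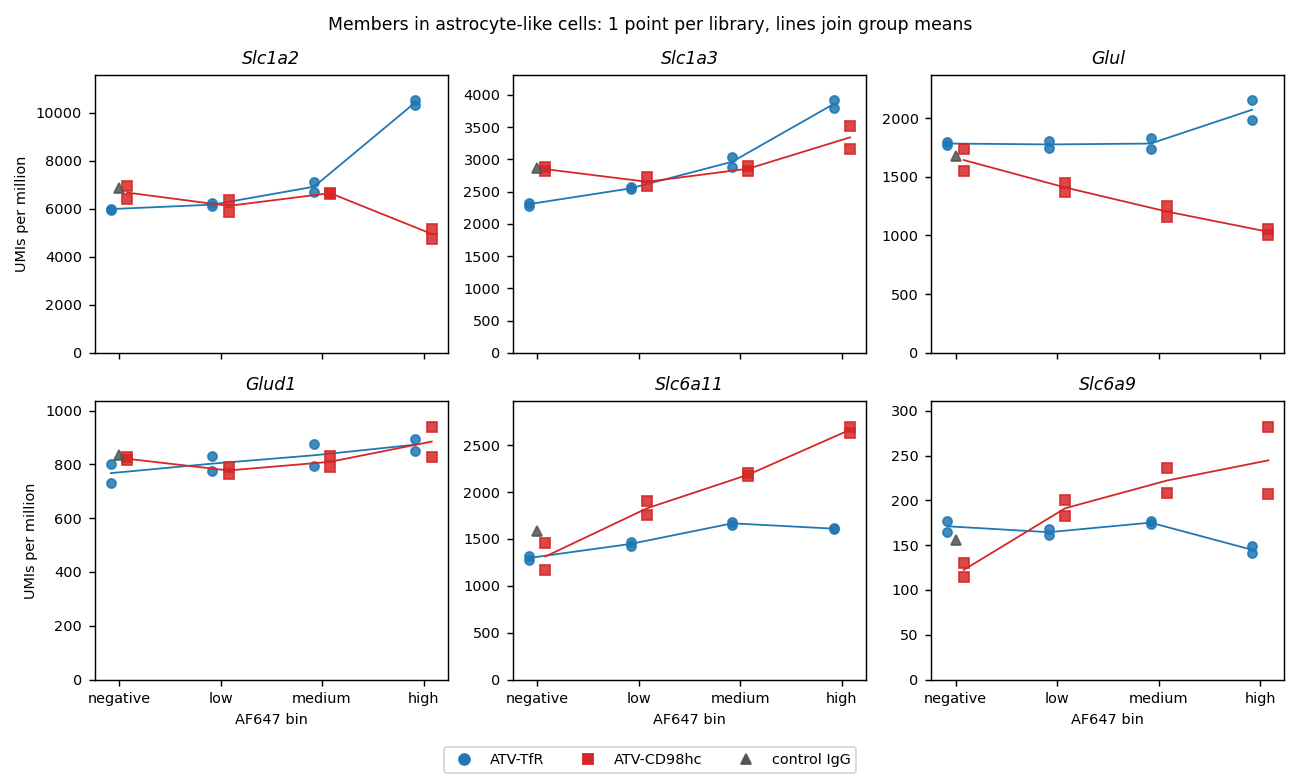
Level of each gene in astrocyte-like cells in CPM over the bins of AF647 signal, with 1 point per library and lines joining the group means. Slc1a2 and Slc1a3 climb to the high bin in ATV-TfR, Glul goes down and Slc6a11 goes up over the bins of ATV-CD98hc, and Glud1 lies between 732 and 940 in every ATV library.

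Set against all genes, the low bin of ATV-TfR had 0 of 6 members called by edgeR, and 0 with an unadjusted p below 0.05, beside 1.57% of genes, medium 2 beside 4.5%, and high 5 beside 15.7%. For ATV-CD98hc the counts were 2 in low beside 2.84%, 3 in medium beside 15.3%, and 4 in high beside 7.76%. Between the medium and low bins, 0 members were called in either treatment, beside 0.848% of genes in ATV-TfR and 5.89% in ATV-CD98hc, while 2 and 3 members had an unadjusted p below 0.05. Other fits made calls there. Slc6a11 of ATV-CD98hc was called with the replicate block (0.27, adjusted p = 0.0463) and by DESeq2 (0.28, adjusted p = 0.0367), and Slc1a3 of ATV-TfR by DESeq2 (0.24, adjusted p = 0.0129). Glul of ATV-CD98hc was called without its replicate 2 (-0.34, adjusted p = 0.0239), Slc1a2 within cluster 1 (0.50, adjusted p = 0.00339) and Slc1a3 within cluster 3 (0.39, adjusted p = 0.0226), both clusters being described further on. The median log2 change of the members was 0.39 in the high bin of ATV-TfR against -0.02 for all genes, and 0.13 in the high bin of ATV-CD98hc against -0.05. The members' median in ATV-CD98hc joins rises of Slc6a11 and Slc6a9 with falls of Slc1a2 and Glul.

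The test of the difference between treatments asked whether a member changed from the negative bin by different amounts in ATV-TfR and ATV-CD98hc. For the high bin 5 of 6 members differed, beside 7.5% of genes. Slc1a2 (1.40, edgeR adjusted p = 6.41e-06), Glul (1.06, adjusted p = 6.03e-05) and Slc1a3 (0.68, adjusted p = 0.00255) changed more toward higher values in ATV-TfR. Slc6a9 (-1.05, adjusted p = 0.000712) and Slc6a11 (-0.54, adjusted p = 0.0207) changed more toward higher values in ATV-CD98hc. For the medium bin Glul (0.47, adjusted p = 0.0378) and Slc6a9 (-0.80, adjusted p = 0.00282) differed, beside 5.91% of genes, and for the low bin Slc6a9 alone (-0.69, adjusted p = 0.0133), beside 1.7%. Leaving out ATV-TfR replicate 1 or 2 ended the low and medium calls. Of the high-bin calls, leaving them out ended those of Slc1a3 and Slc6a11, and leaving out replicate 2 ended that of Slc6a9. Such fits leave 1 library in each ATV-TfR group, so a lost call does not show that a difference was lost. With cells thinned to equal depth, the high-bin differences of Slc6a9 (-0.60, adjusted p = 0.302) and Slc6a11 (-0.38, adjusted p = 0.31) were not called. Nor were the low-bin difference of Slc6a9 (-0.57, adjusted p = 0.141) and the medium-bin differences of Slc6a9 (-0.58, adjusted p = 0.088) and Glul (0.41, adjusted p = 0.2). Within cluster 1 or cluster 3 none of the differences that could be fitted was called, with values further on.

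Within single bins, Slc6a9 of negative cells was higher after ATV-TfR than after ATV-CD98hc (0.48, edgeR adjusted p = 0.0397, beside 0.811% of genes). Such comparisons of the 2 ATVs rest on 2 pools against 2, and the replicate block was not fitted for them. Their spread was estimated over all bins, whose libraries share pools and so are not independent. Glul was higher in ATV-TfR in the low bin (0.34, adjusted p = 0.0425, beside 3.96%) and in the medium bin (0.58, adjusted p = 0.000223, beside 20.5%). Slc6a11 (-0.37, adjusted p = 0.0105) and Slc6a9 (-0.32, adjusted p = 0.033) were lower in ATV-TfR in the medium bin. Of these, only the medium call of Glul held without either ATV-TfR replicate. The medium call of Slc6a9 was also lost without ATV-CD98hc replicate 2 (-0.20, adjusted p = 0.0939), in cells without an endothelial marker UMI (-0.31, adjusted p = 0.0668) and with cells thinned (-0.26, adjusted p = 0.17), and that of Slc6a11 with cells thinned (-0.26, adjusted p = 0.128). Neither of these medium calls was made within cluster 3, at -0.0037 for Slc6a11 (adjusted p = 0.989) and 0.24 for Slc6a9 (adjusted p = 0.239). Within cluster 1 Slc6a9 was not called (-0.047, adjusted p = 0.893), while Slc6a11 was (-0.32, adjusted p = 0.0275). The negative-bin call of Slc6a9 was lost with cells thinned (0.32, adjusted p = 0.451) and under a stricter cell filter (0.49, adjusted p = 0.0753). The low-bin call of Glul was lost without ATV-CD98hc replicate 2 (0.29, adjusted p = 0.0501), under stricter filters on counts (0.33, adjusted p = 0.051) or cells (0.32, adjusted p = 0.118) and in cells without an endothelial marker UMI (0.35, adjusted p = 0.0654). It was called within cluster 3 (0.38, adjusted p = 0.0218, beside 2.24% of genes) and not within cluster 1 (0.22, adjusted p = 0.202), where Slc6a11 was called in the low bin instead (-0.30, adjusted p = 0.0493, beside 4.32%). Against the 1 negative library of control IgG, 0 of 6 members were called in the negative bin of either ATV, beside 0.493% of genes for ATV-TfR and 0.0561% for ATV-CD98hc. Of the members, 2 had an unadjusted p below 0.05 in each of these comparisons. The spread of the 1 control IgG library was taken from the other groups, so the count of 0 does not show that the treatments were alike.

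Other measures moved with the bins in the same cells. The summed level of 12 endothelial markers in astrocyte-like cells was 11.5, 10.7, 38.4 and 301 CPM from negative to high in ATV-TfR, with 232 to 369 CPM in the high libraries. In ATV-CD98hc it was 12.6, 42.6, 364 and 204 CPM, and in control IgG negative 44.2 CPM. Between 11 and 12 of these markers were detected in each library. When only astrocyte-like cells without any endothelial marker UMI were used, Slc1a2, Slc1a3 and Slc6a11 were called in the high bin of ATV-TfR, whereas Glul (0.35, edgeR adjusted p = 0.0553) and Glud1 (0.29, adjusted p = 0.095) were not. In those cells 4 members were called in the high bin of ATV-CD98hc. The share of all genes called in this fit is not reported here, so its calls are not set against all genes. The sum of 12 astrocyte markers, which does not hold the members, went from 15814 to 21700 CPM from negative to high in ATV-TfR and from 15598 to 14975 CPM in ATV-CD98hc. A list of Gfap-rich astrocyte genes (Gfap, Vim, Id3, S100a6, Fabp7 and Thbs4) went from 496 to 965 CPM and from 495 to 643 CPM. The part of endothelial RNA in the sum of this list was not tested. The part of these marker levels in the members' changes was not tested.

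The astrocytes of different brain regions are known to differ in their transporters, and the 6 astrocyte-like clusters differed in the same 6 genes, which the clustering had not used as variable genes. As a description of the 5 negative libraries, cluster 1, led by Cspg5, Lhx2, Hopx and Gldc, held 8044 ± 886 CPM of Slc1a2, 3435 ± 210 of Slc1a3 and 2232 ± 162 of Glul, but 603 ± 14.6 of Slc6a11 and 35.9 ± 5.56 of Slc6a9 (SD, n = 5). Cluster 3, led by Agt, Itih3, Igsf1 and Nkx6-2, held 3507 ± 321, 2161 ± 298 and 1280 ± 130 CPM of the first group and 2688 ± 181 and 299 ± 23.9 CPM of the second. The member Slc6a11 is itself among the leading genes of cluster 3. Clusters 5 and 9 also had the GABA and glycine carriers at high levels, with 2253 and 2237 CPM of Slc6a11 and 246 and 414 CPM of Slc6a9. Cluster 8 had them at low levels, with 9916 CPM of Slc1a2, 592 of Slc6a11 and 29.0 of Slc6a9. Cluster 19, the smallest, had 4511 CPM of Glul and a median UMI count of 0.406 of that of its libraries. Glud1 ran from 557 CPM in cluster 5 to 1154 in cluster 19.

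Regional markers followed the same division. A list of genes known from astrocytes outside the telencephalon (Agt, Itih3, Sparc, Irx2, Irx5 and Zic1) summed to 4988, 2190 and 2008 CPM in clusters 3, 5 and 9, against 407, 328 and 894 in clusters 1, 8 and 19. Agt and Itih3 are also among the leading genes of cluster 3, so these sums are a description of clusters made from the same cells.

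The make-up of the astrocyte-like class changed with the bin. Cluster 1 was 35.4%, 39.7%, 39.7% and 50.8% of astrocyte-like cells from negative to high in ATV-TfR, and 46.2%, 33.5%, 22% and 9.0% in ATV-CD98hc. Cluster 3 went from 18.1% to 30.6% in ATV-TfR and from 23.3% to 52.1% in ATV-CD98hc, and cluster 5 from 14.7% to 7.84% and from 11.7% to 32.1%. Cluster 9 went from 12.7% to 2.48% and from 5.07% to 1.01%. In control IgG negative, clusters 1, 3 and 5 were 40.0%, 31.9% and 11.3%. The sum of the list above went from 1564 to 5835 CPM over the bins of ATV-CD98hc and from 1629 to 3173 CPM over those of ATV-TfR, where the shares of clusters 5 and 9 went down. The list holds Sparc, which endothelial cells also express, and the endothelial markers went from 12.6 to 204 CPM and from 11.5 to 301 CPM over the same bins. Their part in the sum was not tested.

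**Figure D3:**
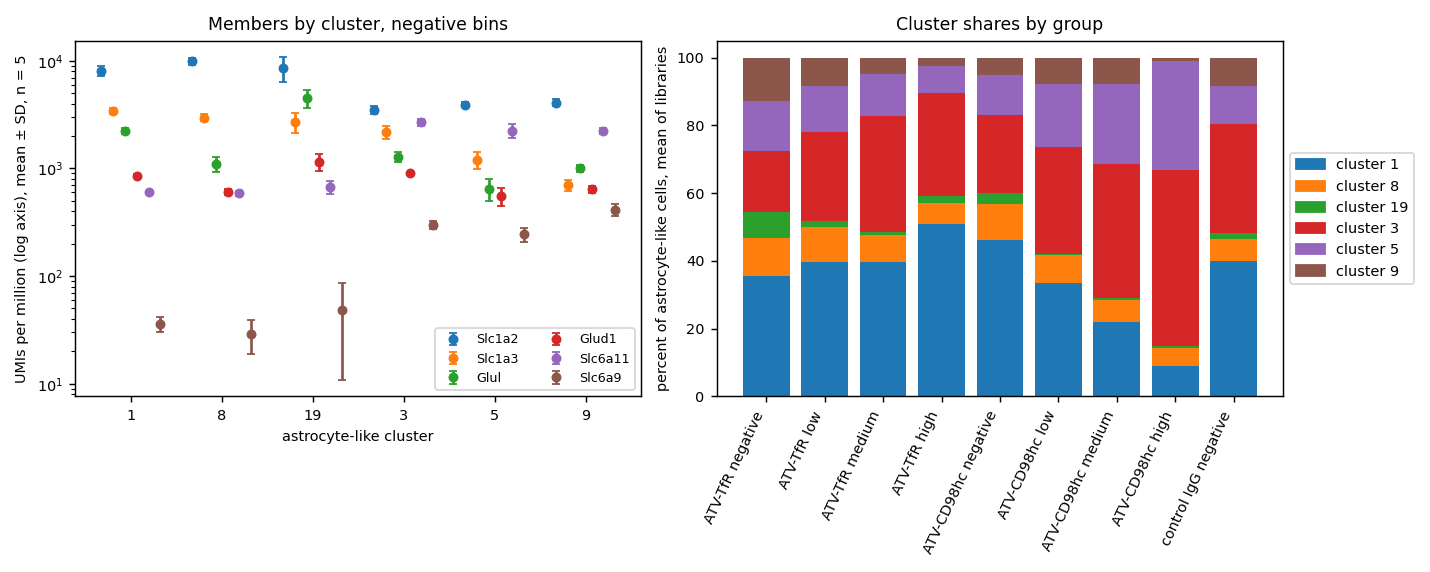
Left, mean level of each gene in the 6 astrocyte-like clusters of the negative bins, in CPM on a log axis, with SD over 5 libraries. Right, the percent of astrocyte-like cells in each cluster by treatment and bin, as the mean of libraries: cluster 1 goes from 46.2% to 9.0% over the bins of ATV-CD98hc and from 35.4% to 50.8% over those of ATV-TfR.

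Fits within cluster 1 and within cluster 3 asked which changes were also found inside a single cluster. The fit within cluster 3 was added after seeing the data. In the high bin of ATV-TfR, Slc1a2, Slc1a3 and Slc6a11 were called in both clusters. Slc1a2 rose by 0.95 in cluster 1 (edgeR adjusted p = 6.32e-07, beside 13.4% of 15218 genes) and by 0.70 in cluster 3 (adjusted p = 3.21e-05, beside 4% of 13767 genes). Slc1a3 rose by 0.58 (adjusted p = 9.46e-05) and 0.84 (adjusted p = 2.15e-06), and Slc6a11 by 0.51 (adjusted p = 0.000477) and 0.61 (adjusted p = 0.000322). Glul and Glud1 were not called in either cluster. In the medium bin of ATV-TfR, Slc1a2 (0.36, adjusted p = 0.0403) and Slc6a11 (0.33, adjusted p = 0.0323) were called in cluster 1, beside 3.41%, and Slc1a3 in cluster 3 (0.42, adjusted p = 0.0221), beside 1.4%. Of the low bin, 0 members were called in cluster 1, beside 0.651%.

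In ATV-CD98hc several changes took another size or direction inside a cluster. Within cluster 1, Slc1a2 read 7367 to 8942 CPM in negative and 11349 to 11900 CPM in medium, a rise of 0.60 (edgeR adjusted p = 0.000254, beside 8.66% of genes), where the whole class gave 0.03 (adjusted p = 0.872). Slc1a2 also rose within cluster 3, by 0.41 (adjusted p = 0.0166, beside 2.71%), and Slc1a3 by 0.47 in medium (adjusted p = 0.00603) and 0.66 in high (adjusted p = 0.000263, beside 1.57%). Glul was not called in the medium bin in either cluster, nor in the high bin in cluster 3. Slc6a11 rose in cluster 1 by 0.42 in low (adjusted p = 0.00829, beside 2.27%) and 0.59 in medium (adjusted p = 0.000129), and Slc6a9 by 0.60 (adjusted p = 0.00734) and 0.64 (adjusted p = 0.0158). In cluster 3 neither was called in any bin, and the low bin called 0.356% of genes. The high bin of ATV-CD98hc had 35 cells of cluster 1 and could not be fitted there.

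The difference between treatments was not called for any member within cluster 1 or cluster 3, and the high bin could not be fitted in cluster 1. In cluster 1 the low and medium comparisons called 0.677% and 0.867% of genes. In cluster 3 the low, medium and high comparisons called 0.37%, 0.0654% and 0.131%. For the high bin in cluster 3, Slc1a2 stood at 0.48 (edgeR adjusted p = 0.256), against 1.40 in the whole class, Glul at 0.18 (adjusted p = 0.796) against 1.06, Slc6a9 at 0.25 (adjusted p = 0.804) against -1.05, and Slc6a11 at 0.40 (adjusted p = 0.456) against -0.54. For the medium bin in cluster 3, Slc6a9 stood at 0.14 (adjusted p = 0.948) against -0.80. Compared directly in the medium bin, Glul was higher in ATV-TfR within cluster 3 (0.40, adjusted p = 0.00805, beside 7.37%) and was not called within cluster 1 (0.23, adjusted p = 0.126). Slc1a3 was lower in ATV-TfR within cluster 3 (-0.33, adjusted p = 0.04). Within cluster 1, Slc1a2 (-0.38, adjusted p = 0.0167, beside 7.5%) and Slc6a11 (-0.32, adjusted p = 0.0275) were lower in ATV-TfR. In cluster 3, Slc6a11 stood at -0.0037 (adjusted p = 0.989). Slc6a9 was called in neither cluster, at -0.047 in cluster 1 (adjusted p = 0.893) and 0.24 in cluster 3 (adjusted p = 0.239). Cluster shares and single-cell levels were measured in the same libraries, and the part of the shares in the class-wide changes was not tested beyond these fits.

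**Figure D4:**
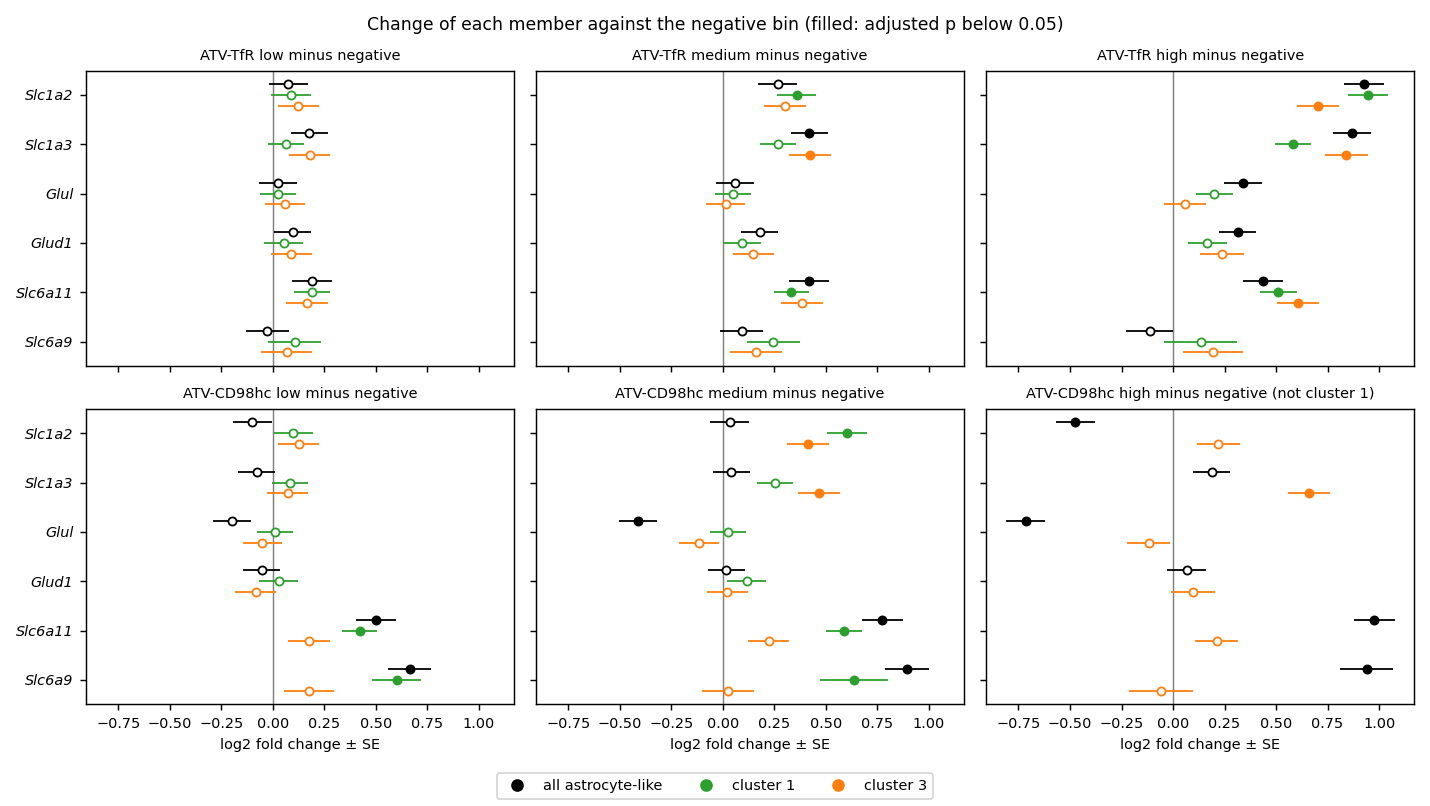
Log2 fold change of each member against the negative bin, with its SE, in all astrocyte-like cells and within clusters 1 and 3, where filled points have an edgeR adjusted p below 0.05. In the high bin of ATV-TfR, Slc1a2 and Slc1a3 lie above 0 in all 3 fits, while for ATV-CD98hc Slc6a11 and Slc6a9 lie nearer to 0 in cluster 3 than in the whole class.

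Another 51 genes of transmitter handling, in 6 lists, place the members among their partners, and 45 of them were tested. In ATV-TfR, 0 of these were called in low, 2 fell in medium, and 14 rose and 1 fell in high, beside 1.57%, 4.5% and 15.7% of all genes called. The median of the 45 in high was 0.18 against -0.02 for all genes. The rises of the high bin included 4 of 10 further glutamate and glutamine carriers, 3 of 10 glycine and serine enzymes and 3 of 6 genes of the sodium pump and potassium channel list. Gldc, the decarboxylase of the glycine cleavage system, rose by 0.84 (edgeR adjusted p = 0.000101), and Gcsh, its hydrogen carrier, by 0.51 (adjusted p = 0.00479). Phgdh, the first enzyme of serine synthesis, rose by 0.59 (adjusted p = 0.0175), and Srr, serine racemase, fell by 0.42 (adjusted p = 0.0185). Aldh5a1, which oxidises a breakdown product of GABA, rose by 0.63 (adjusted p = 0.000657), the neutral amino acid carrier Slc1a4 by 0.54 (adjusted p = 0.00222) and Fxyd1, a regulator of the sodium pump, by 0.68 (adjusted p = 0.0012).

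In ATV-CD98hc, 2 pathway genes fell in low, 7 rose and 6 fell in medium, and 7 rose and 5 fell in high, beside 2.84%, 15.3% and 7.76% of all genes called. The median was -0.0060 in medium and -0.02 in high, against -0.02 and -0.05 for all genes. Slc38a1, a glutamine carrier, rose by 1.54 in medium (edgeR adjusted p = 0.00102) and 2.25 in high (adjusted p = 0.00175), and Kcnj10, the potassium channel Kir4.1, by 0.65 (adjusted p = 0.000967) and 0.88 (adjusted p = 0.000189). Abat, GABA transaminase, rose by 0.43 (adjusted p = 0.015) and 0.64 (adjusted p = 0.00303). The sodium pump subunit Atp1b1 fell by 0.73 in low (adjusted p = 0.00229), fell by 1.98 in medium (adjusted p = 2.42e-08) and fell by 2.96 in high (adjusted p = 4.91e-07). Of the glycine and serine enzymes 3 fell in both medium and high, with Gldc at -0.43 (adjusted p = 0.0174) and -0.98 (adjusted p = 0.000321). The median of that list in the high bin was -0.41 in ATV-CD98hc and 0.28 in ATV-TfR. Gldc is a leading gene of cluster 1, whose share moved in opposite directions in the 2 treatments, and endothelial marker levels rose in the same bins.

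Outside astrocytes the members also differed between bins, and the summed astrocyte markers moved with them in some classes and bins but not in others. Over the other classes, 14 pairs of class and ATV could be tested in the low bin, and Slc6a11 was called higher in all 14 and Slc1a2 in 13. The share of all genes called in these low bins ran from 0.47% to 17.4% over the pairs. With 7 pairs in the high bin, where 1.57% to 33.2% of genes were called, Slc1a2 was called lower in 6 and Slc6a11 in 3, and neither was called higher. The 12 astrocyte markers summed in microglia-like cells to 188, 634 and 275 CPM in negative, low and medium of ATV-TfR, and to 229, 569, 99.1 and 30.4 CPM over the bins of ATV-CD98hc. In oligodendrocyte-like cells they went from 624 to 2907 and 2889 CPM from negative to low and medium of ATV-TfR, and from 552 to 3567 and 887 CPM in ATV-CD98hc. In choroid plexus epithelial-like cells the sum was 1999 and 2020 CPM in negative and high of ATV-TfR, and 1686 and 1958 CPM in ATV-CD98hc. In border macrophage-like cells of ATV-TfR it was 78.2 and 86.2 CPM. Members were called lower in each of these high bins, although the sum was not lower. In the other high bins tested the sum was below that of negative. The part of astrocyte RNA in these changes was not tested.

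Glul in oligodendrocyte-like cells fell in the medium bin of both treatments and in the low bin of ATV-CD98hc. It read 1313 and 1334 CPM in negative, 1089 to 1191 in low and 447 to 452 in medium of ATV-TfR. In ATV-CD98hc it read 1008 to 1153, 700 to 735 and 525 to 616 CPM, and in control IgG negative 1257 CPM. The medium bins were the lowest in both treatments and did not overlap with negative. Glul fell by 1.62 in medium of ATV-TfR (SE 0.16, edgeR adjusted p = 2.4e-07, fold 0.32, beside 20.9% of genes), and its low bin was not called (-0.32, adjusted p = 0.246). The astrocyte marker sum of these ATV-TfR cells was higher in low and medium than in negative, and its part in the level of Glul was not tested. In ATV-CD98hc it fell by 0.74 in low (adjusted p = 0.00226, beside 15.7%) and fell by 1.02 in medium (adjusted p = 0.000256, beside 6.19%). The cells numbered 2932, 702 and 183 in negative, low and medium of ATV-TfR and 1737, 429 and 118 in ATV-CD98hc. Within cluster 10, led by genes that include Mag and Ermn, Glul read 1418 and 1323 CPM in negative and 473 and 377 CPM in medium of ATV-TfR. In ATV-CD98hc the same cluster read 1164 and 1008 CPM in negative, 670 and 736 in low and 519 and 674 in medium, so low and medium overlapped. Cluster 21, the other oligodendrocyte-like cluster, overlapped between all bins of ATV-TfR, with 568 and 1147 CPM in negative, 498 and 1473 in low and 376 and 913 in medium. The pools lay far apart, and within each pool medium was below negative and low. Cluster 10 was 84.3% of oligodendrocyte-like cells in negative and 64.2% in medium of ATV-TfR, and 95.5% and 83.1% in ATV-CD98hc.

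Slc1a3 in fibroblast-like cells also stood apart. It read 940 to 1346 CPM in negative, 329 to 404 in low and 281 to 352 in medium of ATV-TfR, log2 fold changes of -1.71 (edgeR adjusted p = 2.36e-05, beside 14.2% of 11435 genes) and -1.94 (adjusted p = 7.25e-06, beside 13.9%). In ATV-CD98hc it read 1047 to 1292 CPM in negative, 1540 to 1550 in low, 467 to 524 in medium and 57.1 to 87.2 in high. In its high bin it fell by 4.06 (adjusted p = 7.92e-09, beside 9.06%). In control IgG it was 1617 CPM in the negative library and 34.0 to 36.5 CPM in low. The fibroblast-like class joined cluster 24, led by Slc6a13, Spp1 and Ptgds, and cluster 17, led by Coch and Lum, with 1028 to 1830 CPM of Slc1a3 in libraries of the former and 6.77 to 316 CPM in those of the latter. Cluster 24 was 94.2% to 96.5% of fibroblast-like cells in the negative bins, 11.9% in low of ATV-TfR, 86.4% in low of ATV-CD98hc and 10.8% in its high bin. The call of the low bin of ATV-TfR was lost without its replicate 1 (-1.31, adjusted p = 0.0628).

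**Figure D5:**
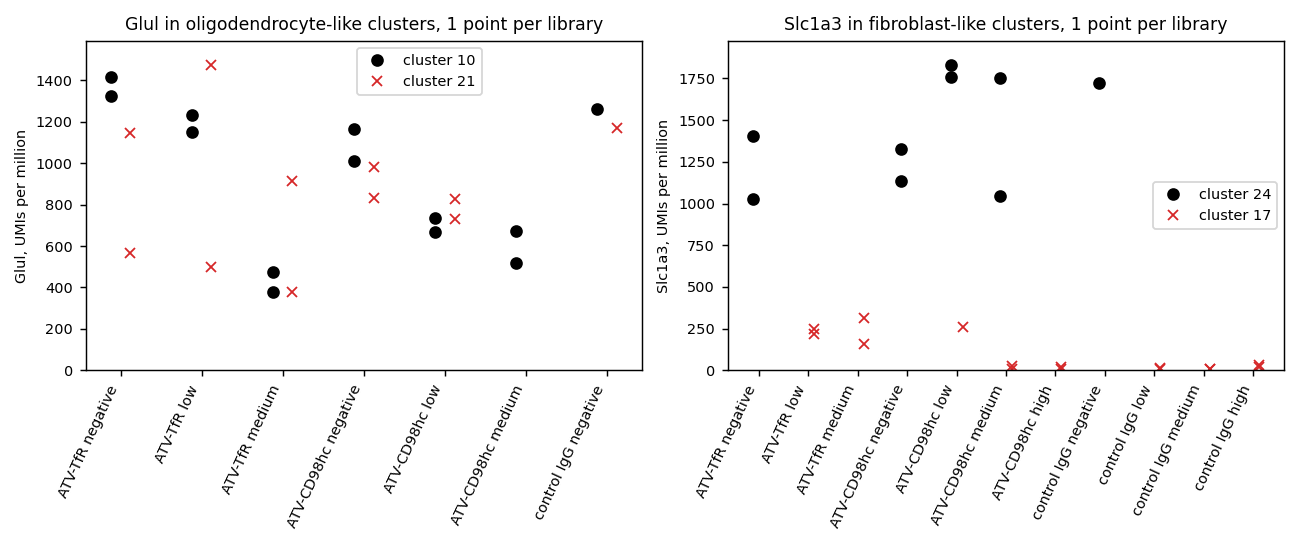
Level of Glul in the 2 oligodendrocyte-like clusters (left) and of Slc1a3 in the 2 fibroblast-like clusters (right), in CPM by treatment and bin, with 1 point per library that had enough cells. Glul in cluster 10 reads 377 to 473 in medium of ATV-TfR against 1323 to 1418 in negative, and Slc1a3 in cluster 17 stays at or below 316 in every library while cluster 24 stays at or above 1028.

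Genes with the most similar patterns were named by Pearson's r of log2(CPM + 1), as a description over points that share libraries and depth. Over the 17 astrocyte-like libraries and 7600 genes, Slc1a2 was most like Cpe (r = 0.943), Slc1a3 most like Clcn3 (0.903) and Glul most like Ppp1r3c (0.967). In the same libraries Glud1 was most like Tmem47 (0.911), Slc6a11 most like Adcy8 (0.983) and Slc6a9 most like Gpsm1 (0.932). Adcy8 is among the leading genes of cluster 5. Over the 10 classes of the negative bins, Slc6a11 was most like Slc4a4 (0.996), Etnppl (0.995) and Acsbg1 (0.991), and Slc1a2 most like Disp3 (0.994), Kcnk10 (0.987) and Scrg1 (0.985). Slc4a4 is among the astrocyte markers that named the classes. Slc6a9 followed Hr (0.957), Tafa5 (0.948) and Dtna (0.941) over the classes, and Glul followed Mtmr10 at a lower r of 0.878.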

How the data were processed

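Droplet RNA libraries of sorted brain cells were deposited as whole-number UMI counts per gene and barcode, made by the authors with Cell Ranger 7.1.0, per the file headers. The submitters' processing notes also name Seurat 4 and 5 and mm10 (GRCm38). How cells were called is not given in the sources used here. The other deposited files, of no measured unit, list barcodes, genes and libraries. Barcodes were kept from 500 genes and 800 UMIs upward, up to a mitochondrial share of 10%. Doublets were removed per library with Scrublet (scanpy 1.11.5), at its automatic threshold or, where that marked under 0.5% or over 25%, above percentile 94 of the score, which left 234022 of 249715 cells. The percentile applied to the high libraries of both ATVs, the medium libraries of ATV-CD98hc, and low replicate 2 of ATV-CD98hc and control IgG. Every negative library used the automatic threshold, so the rule differed between bins that are compared. Leiden clusters (igraph 0.11.9, resolution 1, 2000 variable genes without the 6 members, 50 components, 15 neighbours) were named by 19 marker lists. A name needed a share of 0.5 of a list and 3 markers.

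UMIs were summed per class and library with at least 20 cells. They were tested with edgeR 4.0.16 (limma 3.58.1, R 4.3.3; TMM, its filter on low counts, 1 mean per group), checked beforehand on simulated counts. DESeq2 1.42.0, other filters, thinning to 1000 UMIs and leaving out replicates were alternatives. Same-numbered libraries of a treatment are the same pool of mice, so the numbers pair the bins; the correlation of their deviations over 8402 genes ran from 0.169 to 0.740 in ATV-TfR and from -0.224 to 0.596 in ATV-CD98hc. Pathway genes were named as up to 6 per direction and bin with the largest change, at an average log2 CPM of at least 4, and similar genes as the 3 with the highest r among genes of at least 20 CPM. Similar genes beyond the first were printed for 3 members only. Members and lists were chosen with earlier results of these data known. Groups of 2 pools measure the spread between pools, and CPM within a class depends on every other gene of the class. Some genes of the lists are not reported here.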

Additional observations from a re-analysis of the deposited data

Results flagged for a closer look

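In 8 results a member's change from the negative bin differed between ATV-TfR and ATV-CD98hc in astrocyte-like cells, by the edgeR test of the difference itself. In the low bin Slc6a9 differed by -0.69 (ATV-TfR minus ATV-CD98hc, log2 scale). In the medium bin Slc6a9 differed by -0.80 and Glul by 0.47. In the high bin the differences were 1.40 for Slc1a2, 1.06 for Glul, 0.68 for Slc1a3, -0.54 for Slc6a11 and -1.05 for Slc6a9. None of these differences was called within cluster 3, and for the low and medium bins none was called within cluster 1. Within cluster 1, Slc6a9 stood at -0.50 in low (adjusted p = 0.477) and -0.39 in medium (adjusted p = 0.489), the direction of the whole class, and Glul at 0.03 in medium (adjusted p = 0.967). Within cluster 3 the sign was opposite to that of the whole class for Slc6a9 in medium (0.14, adjusted p = 0.948) and high (0.25, adjusted p = 0.804) and for Slc6a11 in high (0.40, adjusted p = 0.456). A p that misses the threshold does not by itself show that a difference is absent. The share of cluster 1 and the endothelial marker sum of the astrocyte-like cells moved with the bins, as given above, and their part in these differences was not tested beyond the fits within clusters.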

How the results depend on the processing

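The replicate block, which pairs the bins of a pool, was not fitted for treatments compared within a single bin. It changed 2 counts of called members in astrocyte-like cells: medium against low in ATV-CD98hc went from 0 to 1, and the difference between treatments in medium from 2 to 3. It moved 5 of the counts of genes called by more than 1.5 times: from 722 to 1201 in medium and 136 to 423 in medium against low of ATV-TfR, from 455 to 961 in low and 944 to 1527 in medium against low of ATV-CD98hc, and from 948 to 1566 for the difference between treatments in medium. Over all alternatives, 220 values of the counts of called members stayed within 1.5 times of the reported ones and 57 moved further; the cause was not tested, beyond the fewer cells or libraries of some fits.

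Counts of called members, of 6, moved as follows, and 2 counts need not hold the same members. The number of all genes called also changed between these fits, over the ranges given below. A moved count is therefore not by itself a result about the members. In medium of ATV-TfR, 2 became 1 in cluster 3 and 0 to 3 when leaving out a replicate. In high of ATV-TfR, 5 became 3 in cluster 1, in cluster 3, without cells holding an endothelial marker UMI and with cells thinned, and 2 to 5 when leaving out a replicate. In medium against low of ATV-TfR, DESeq2 called 1. In ATV-CD98hc low, 2 became 1 with only the treatments compared and 0 in cluster 3. In its high bin 4 became 1 in cluster 3. None of those 4 was called there, and the 1 call was of Slc1a3 (0.66, edgeR adjusted p = 0.000263). In its medium bin Glul was not called in cluster 1, while Slc1a2 was. In its medium against low, 0 became 1 with DESeq2, in cluster 1 and in cluster 3, and 0 to 1 when leaving out a replicate. The difference between treatments in low fell from 1 to 0 in cluster 1, in cluster 3 and with cells thinned, and was 0 to 1 when leaving out a replicate. In medium it went from 2 to 4 with DESeq2, 1 with RLE factors or a stricter filter on low counts, 0 in clusters 1 and 3 and with cells thinned, and 0 to 4 when leaving out a replicate. In high it went from 5 to 0 in cluster 3 and 3 with cells thinned, and 2 to 5 when leaving out a replicate. For the treatments compared in the negative bin, 1 became 2 with DESeq2, and 0 in clusters 1 and 3, under a stricter cell filter and with cells thinned, and 0 to 1 when leaving out a replicate. In the low bin, 1 became 2 with DESeq2 and with no filter on low counts, and 0 with stricter filters on counts or cells and without endothelial marker UMIs, and 0 to 1 when leaving out a replicate. In the medium bin, 3 became 1 with cells thinned and 1 to 3 when leaving out a replicate. Against control IgG, 0 became 1 for ATV-TfR with DESeq2, 0 to 1 when leaving out a replicate, and 0 to 2 for ATV-CD98hc.

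Among the single values the text draws on, called or not, 16 values under an alternative had the opposite sign. Slc1a2 in medium of ATV-CD98hc read -0.019 to 0.12 without either ATV-CD98hc replicate (-0.019 without replicate 2), -0.16 under the stricter cell filter, -0.0088 without endothelial marker UMIs and -0.013 with cells thinned, and in its medium against low -0.068 under the stricter cell filter. Glul in medium of ATV-CD98hc read 0.025 in cluster 1. In cluster 3, Slc1a2 in high of ATV-CD98hc read 0.22 and Slc6a9 -0.060, and the difference between treatments read 0.14 for Slc6a9 in medium, and 0.40 for Slc6a11 and 0.25 for Slc6a9 in high. In the medium bin, ATV-TfR minus ATV-CD98hc read -0.38 for Slc1a2 and -0.082 for Slc1a3 in cluster 1, and -0.15 for Slc1a2, -0.33 for Slc1a3 and 0.24 for Slc6a9 in cluster 3. Member values that were not called also changed sign under some alternatives, and several passed the test under one, as given with the genes above.

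Genes called ranged over the alternatives from 47 to 387 in low, 193 to 1282 in medium and 276 (without ATV-TfR replicate 1) to 3354 in high of ATV-TfR, around 251, 722 and 2515. In ATV-CD98hc they ranged from 49 to 961, 373 to 3154 and 216 to 1550, around 455, 2453 and 1244, and in medium against low from 12 to 423 around 136 (ATV-TfR) and 341 to 1607 around 944 (ATV-CD98hc). For the differences between treatments they ranged from 51 to 494 around 272, 9 to 1660 around 948 and 18 to 1575 around 1202. For treatments within the negative, low and medium bins the ranges were 12 to 788 around 130, 253 to 1151 around 635 and 957 to 3788 around 3285, and against control IgG 6 to 384 around 79 and 2 to 410 around 9. The high bins rest on 972 and 387 astrocyte-like cells.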
